A study of Mus musculus with 36 samples.

Results

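Heat-shock and DnaJ chaperone genes were taken from the table of normalised counts by name and annotation. A gene was a member if it was listed as protein coding and its symbol belonged to the HSP70 (*Hspa*), small heat-shock (*Hspb*), HSP90 (*Hsp90*), chaperonin (*Hspd1*, *Hspe1*), HSP110 (*Hsph1*) or DnaJ (*Dnaja*, *Dnajb*, *Dnajc*) families. This rule found 66 members among 22761 listed genes, of which 16394 were protein coding. The members comprised 41 DnaJ genes, 14 HSP70 genes with *Hsph1* counted among them, 6 small heat-shock genes, 3 HSP90 genes and the 2 chaperonin genes. By textbook role, 10 members were grouped as stress-induced, 11 as constitutive, 8 as resident in the endoplasmic reticulum (ER), 8 as mitochondrial and 29 as other.

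The study set kidney progenitor cells made from mouse embryonic stem (ES) cells beside the same cell types taken from embryos. RNA of 36 libraries was sequenced, 4 in each of 9 groups: nephron progenitors (NP), stromal progenitors (SP) and ureteric bud cells (UB), each from E11.5 kidneys, from E12.5 kidneys and from ES cells (iNP, iSP, iUB). Embryonic cells came from CD1 mice at embryonic day 11.5 or 12.5, iNP and iSP from the E14 ES line and iUB from an mCherry ES reporter line that the study's text calls Sox8-mCherry in some places and Sox9-mCherry in others, so the ES-derived cells also differed from the embryonic cells in strain. An embryonic sample pooled the kidneys of the embryos of 1 mouse, and an ES-derived sample pooled the embryoid bodies of 1 differentiation. All groups were sorted by flow cytometry. NP and iNP were high for ITGA8 and low for PDGFRA, and SP and iSP the reverse, after CD31 and EpCAM/RET positive cells had been gated out. UB cells were positive for RET and EpCAM, and iUB for EpCAM and mCherry. The labels name no mutation or drug treatment. By the study's methods, however, the ES-derived cells were made with growth factors and small molecules. The iNP and iSP cells shared a protocol that ended in CHIR99021 and FGF9 up to sorting. The iUB cells had another, with Y27632, retinoic acid, CHIR99021, GDNF and Matrigel in its last steps. The study describes the Sox8-mCherry line as made from IB10 ES cells with Cas9. The title and cell-type labels of the UB samples place them in E11.5 and E12.5, but their source label gives the opposite day. The titles were followed here. Under the other reading a difference between the UB ages would change sign, the values given for iUB against E11.5_UB and E12.5_UB would trade places, and the E11.5 comparisons and interactions that use UB would rest on the other samples.

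Libraries held 13004352 to 52535113 recovered reads, and a count of 3 reads corresponded to between 0.0605 and 0.223 normalised counts. The markers of each sorted type were highest in the groups of that name. The summed level of 5 ureteric bud markers was 1215 to 2425 in the UB and iUB libraries and at most 127.7 in the others. The summed level of 5 macrophage markers was 31.8 to 64.6 in the embryonic UB libraries and at most 2.004 in all others. Erythroid markers summed to 43.5 to 2341 in the embryonic SP libraries and to at most 62.2 elsewhere. In such bulk samples, fewer cells of a type and less RNA per cell cannot be told apart.

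Chaperones bind unfolded or partly folded proteins and help them reach or keep their native shape. HSP70 proteins do so in cycles of ATP binding and release, DnaJ proteins bring them clients and start the ATP step, and HSP110 proteins such as HSPH1 exchange the nucleotide. HSP90 acts late in the folding of kinases and steroid receptors, and small heat-shock proteins hold unfolded clients without using ATP. Heat-shock factor 1 (HSF1) raises the stress-induced genes when unfolded protein accumulates in the cytosol, and a separate unfolded protein response raises the ER chaperones. 

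Upstream sequences are shown for 4 members that hold letters known from the heat shock element: the inducible HSP70 pair, the small heat-shock gene *Hspb1* and the chaperonin gene *Hspe1*. They were picked for holding a match and do not stand for the members as a whole. Promoters were taken from RefSeq (GRCm38.p6), where 53 of the 66 members had an entry. Each line gives the 150 bases before the annotated start, 5′ to 3′ on the gene's strand. *Hspa1a* and *Hspa1b*, the classic inducible HSP70 genes, lie next to each other on the minus strand of chromosome 17, and each is a single exon. Capitals mark the letters GAANNTTC, a short form of the heat shock element that reads the same on both strands. In *Hspe1*, capitals mark the longer form, in which GAA, 2 bases, TTC, 2 bases and GAA follow each other, matched on both strands with an overlap.
Hspa1a (chr17:34972157-34972306, minus strand): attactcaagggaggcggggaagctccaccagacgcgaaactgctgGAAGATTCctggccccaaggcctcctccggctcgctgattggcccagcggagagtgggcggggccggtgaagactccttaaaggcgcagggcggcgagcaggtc
Hspa1b (chr17:34959239-34959388, minus strand): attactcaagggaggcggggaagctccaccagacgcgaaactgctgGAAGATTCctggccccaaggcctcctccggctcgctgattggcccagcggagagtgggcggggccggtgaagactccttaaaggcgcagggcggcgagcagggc
Hspb1 (chr5:135887769-135887918, plus strand): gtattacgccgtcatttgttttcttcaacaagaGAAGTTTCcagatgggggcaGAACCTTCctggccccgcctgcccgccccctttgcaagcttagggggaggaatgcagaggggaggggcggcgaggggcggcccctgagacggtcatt
Hspe1 (chr1:55087998-55088147, plus strand): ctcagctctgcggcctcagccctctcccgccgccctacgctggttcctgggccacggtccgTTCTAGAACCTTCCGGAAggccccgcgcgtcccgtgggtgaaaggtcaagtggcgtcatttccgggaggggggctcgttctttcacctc

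In windows from 250 bases before to 50 after the start, GAANNTTC was present for 6 of the 9 stress-induced genes with an entry, 12 of all 53 members and 9.04% of all genes. The 6 were *Hspa1a*, *Hspa1b*, *Hspb1*, *Hspb8*, *Dnaja1* and *Hsph1*, and no match was found for *Dnajb1*, *Dnajb4* and *Hspa4l*. The longer form, which holds the short one, was present for 0.662% of all genes and for 4 members, of which *Hsph1* was the only stress-induced gene. The others were *Dnajb6* and the pair *Hspd1* and *Hspe1*, which start away from each other so that the same letters count for both. The ER stress element, CCAAT and CCACG with 9 bases between them, was searched on both strands. It was present for 0.137% of all genes and for 3 of 7 ER members. Those were *Hspa5* (chr2:34772025-34772043, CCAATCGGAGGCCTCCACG), *Dnajc3* (chr14:118937827-118937845, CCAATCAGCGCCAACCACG) and *Hsp90b1*, with a match on each strand. These matches are descriptions of letters and no measure of binding. Over the 250 bases before the start, *Hspa1a* and *Hspa1b* were identical at 247 positions, and their transcripts were 99.2% identical over 2201 aligned bases. Reads of the pair could therefore be split between them by the counting, and their values are not independent. In all, 14 members had a stretch of at least 95% identity with another gene. For *Dnaja4*, *Dnajc14* and *Hspa1l* that gene overlapped the member on the opposite strand, so the match was no copy elsewhere.

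The first libraries of the E12.5 groups stood apart and are described before any comparison. In E12.5_SP replicate 1, *Hspa1a* was at 512 normalised counts, against 6.65 to 7.32 in replicates 2 to 4. *Dnajb1*, the DnaJ partner of inducible HSP70, was at 1205 against 69.1 to 88.3. *Hspb1*, encoding HSP25, was at 182 against 16.9 to 18.4. Of the 61 members measured in this group, 17 were at least 1 log2 unit above the mean of the other 3 libraries and 1 was at least 1 unit below, against 4.45% and 4.93% of all 13600 genes. The largest differences were +6.04 for *Hspa1b*, +6.0 for *Hspa1a*, +3.92 for *Dnajb1*, +3.31 for *Hspb1* and +2.68 for *Hsph1* on the log2 scale. The lowest were -1.03 for *Dnajc13*, an endosomal protein, -0.97 for *Dnaja3* of mitochondria, -0.88 for *Dnajc10* of the ER, -0.87 for *Dnajc16* and -0.82 for *Dnajb14*.

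By list, 9 of 10 stress-induced genes were at least 1 unit higher in E12.5_SP replicate 1, with a list median of 2.06. *Hspb8* was the exception, at 13.4 against 9.50 to 11.2. Among 11 constitutive genes, *Hspa8*, the main HSP70 of unstressed cells, was 2.28 higher (2032 against 384 to 457), and the list median was 0.04. *Hspa5*, the HSP70 of the ER, was at 3695 against 1151 to 1242 and the ER median was 0.52. Of the mitochondrial genes, *Hspd1* and *Hspe1* were 1.0 and 1.46 higher, while the list median was -0.12. Members together made up 2.29% of the reads of this library, and *Hspa1a* and *Hspa1b* kept a ratio of 1.41 *Hspa1b* per *Hspa1a*, inside the range of the other E12.5_SP libraries (1.36 to 1.53).

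The first E12.5_NP library also had high values, which were looked at only after they had been seen. *Hspa1a* was at 194 against 1.10 to 1.183 in replicates 2 to 4, *Hspb1* at 58.1 against 0.792 to 1.23, and *Dnajb1* at 370.4 against 57.2 to 79.0. Here 6 of 10 stress-induced genes were at least 1 unit higher, with a median of 1.35, and 10 of 61 members were higher and 0 lower, against 4.21% and 2.51% of all genes. In the first E12.5_UB library, *Hspa1a* was at 43.2 against 5.59 to 7.73 and *Dnajb1* at 155 against 56.2 to 66.3. In that library 3 of 10 stress-induced genes and 8 of 62 members were at least 1 unit higher and 0 lower, against 5.82% and 2.36% of all genes. The labels give no batch that would join the 3 libraries.

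**Figure D1:**
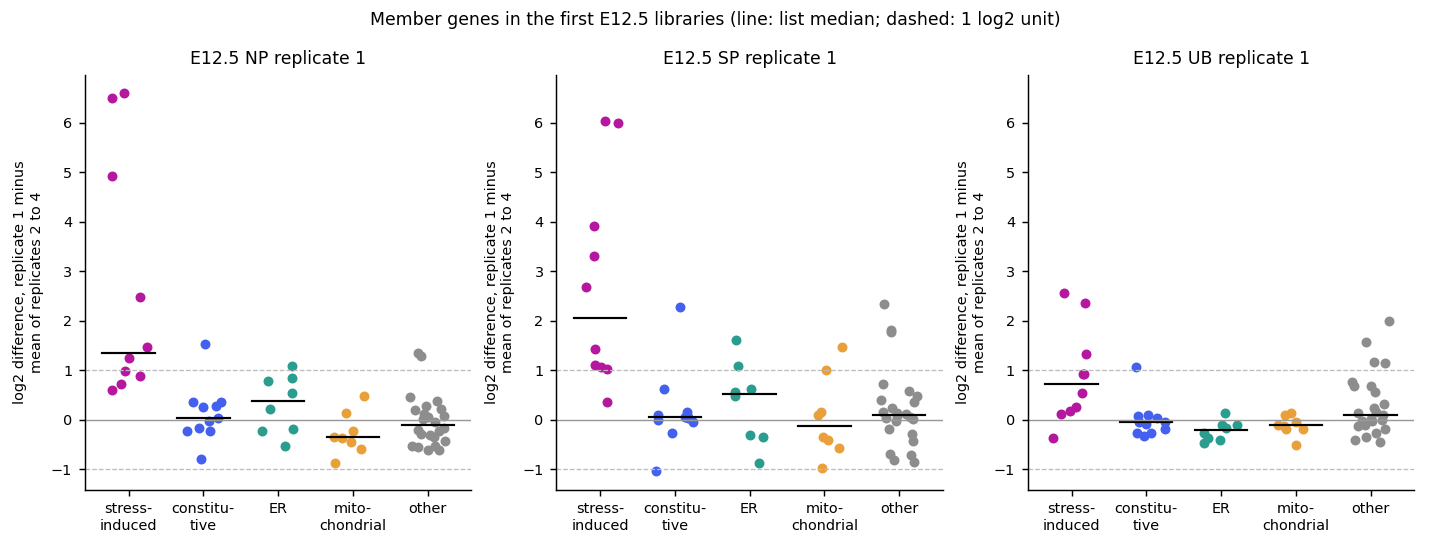
Log2 difference between replicate 1 and the mean of replicates 2 to 4 in E12.5 NP, SP and UB for each measured member, by list. Lines are list medians and dashed lines mark 1 log2 unit. The stress-induced medians lay at 1.35, 2.06 and 0.73, above those of the other lists.

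Other genes moved with these libraries. Of 12 early response genes that are no members (*Fos*, *Jun*, *Egr1*, *Atf3* and others), 11 were at least 1 unit higher in E12.5_SP replicate 1, 7 in E12.5_NP replicate 1 and 1 in E12.5_UB replicate 1. Their summed level was 7107 against 1569 to 2295 in SP, and 1832 against 532 to 738 in NP. Stromal markers summed to 1706 in E12.5_SP replicate 1 against 2812 to 3013, and its erythroid markers to 235 against 754 to 2341. In E12.5_UB replicate 1 the nephron progenitor markers summed to 271 against 28.2 to 38.3, the endothelial markers to 89.4 against 2.94 to 5.30, and the ureteric bud markers to 1215 against 1889 to 1992. Its stromal markers summed to 388 against 177 to 184, and its pluripotency markers to 15.6 against 0.628 to 0.663. In E12.5_NP replicate 1 the nephron progenitor markers summed to 918 against 1355 to 1587, and the ureteric bud markers to 62.0 against 27.3 to 34.9. The part of these genes in the chaperone differences was not tested. Same-numbered E12.5_SP and E12.5_NP libraries deviated from their group means together (Pearson's r over genes of 0.543 to 0.700 for the 4 numbers), so the SP and NP libraries cannot be taken as separate sightings.

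Levels of different genes were compared per kilobase of exon. *Hsp90ab1*, the constitutive cytosolic HSP90, was the most abundant member in all 9 groups. Its mean ran from 1282 per kilobase in E12.5_SP, with replicate 1 included, to 2079 in iNP. It was at 5205 normalised counts in E12.5_SP replicate 1 and at 3224 to 3527 in replicates 2 to 4. In E11.5_NP it was followed by *Hsp90aa1*, the stress-induced HSP90 (361 ± 36.5 per kilobase, SD, n = 4), *Hspd1* (275 ± 30.1), *Hspa5* (265 ± 32.5) and *Hspa8* (239.6 ± 16.4). The spreads of *Hspd1*, *Hspa5* and *Hspa8* overlapped, so their order is not set. *Hspa1a* ranked between 14th of the members in E11.5_UB, at 60.5 per kilobase, and 63rd in iNP, at 0.212. Of the 66 members, *Hspb2*, *Hspb7* and *Dnajb13* were under 1 normalised count in every library and entered no test.

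**Figure D2:**
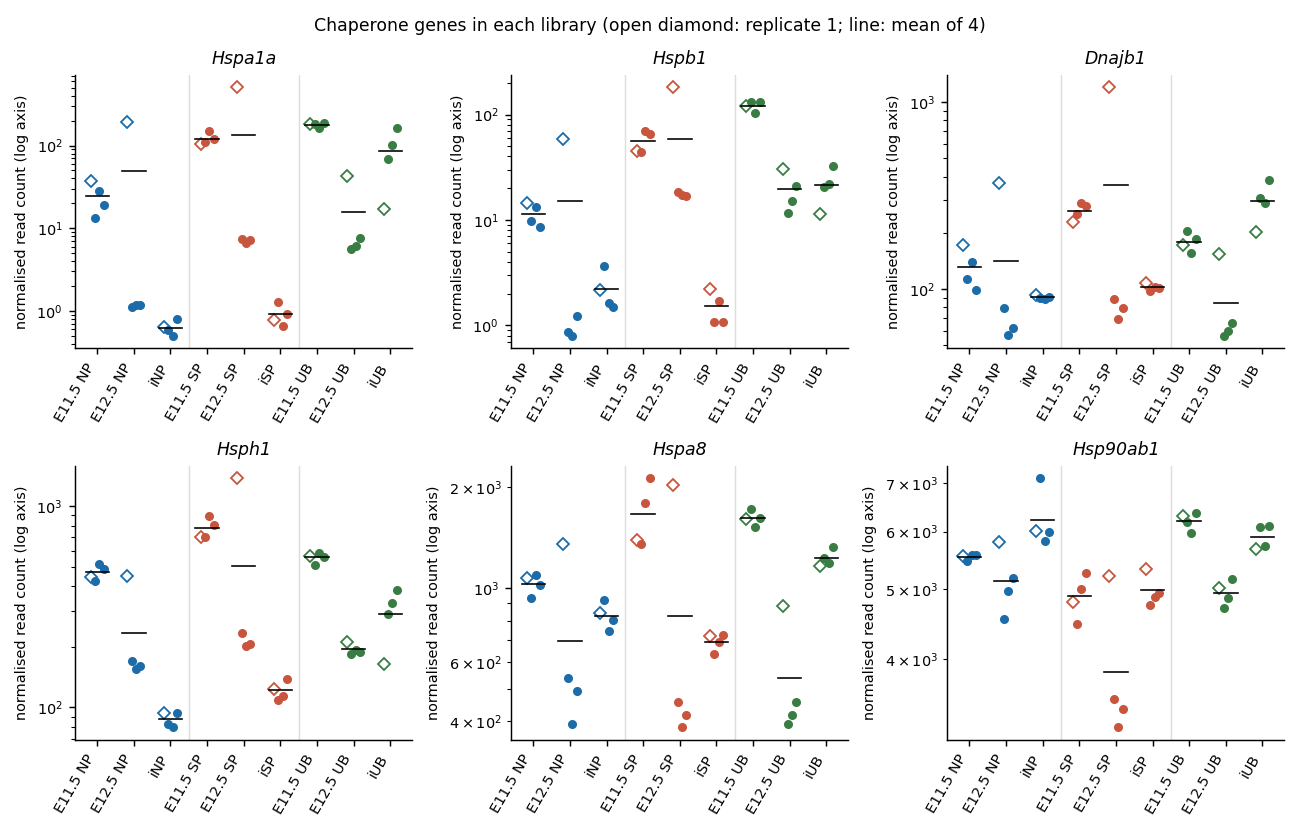
Normalised counts of 6 members in all 36 libraries on log axes, with open diamonds for replicate 1 and lines for the mean of 4. *Hspa1a* was at 103 to 149.6 in E11.5 SP and at 0.665 to 1.29 in iSP, and the E12.5 diamonds lie above the other E12.5 points except for *Hsp90ab1* of UB.

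Among the E11.5 types, *Hspa1a* and *Hspb1* were lowest in NP and highest in UB. *Hspa1a* was at 37.1, 13.3, 28.3 and 19.0 in the 4 E11.5_NP libraries. It was at 103, 112, 149.6 and 121 in E11.5_SP and at 183, 182, 165 and 188 in E11.5_UB. The 3 types did not overlap. *Hspb1* had the same order, at 8.48 to 14.4 in NP, 43.9 to 70.0 in SP and 102 to 131 in UB.

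Differences were tested with limma on log2(value + 1), a scale that understates the change of low genes, with p-values adjusted over all genes tested and called under 0.05. Some members grouped as other were under 1 on average in 1 of the groups compared, and the counts of members are not supported by them. They numbered 2 in E11.5_SP against E11.5_NP, 1 in E11.5_UB against E11.5_NP and 2 in E11.5_UB against E11.5_SP. In iSP, iNP and iUB they numbered 2, 0 and 2 against E11.5 and 2, 1 and 0 against E12.5. Between E11.5_SP and E11.5_NP, 19 of 62 tested members were higher in SP and 8 lower, against 22.2% and 21.0% of all genes. Of the stress-induced genes 7 were higher and *Hspa4l*, an HSP110 relative, lower, with a median log2 fold change of 0.99 against -0.13 for the constitutive genes and -0.03 for all genes tested. *Dnajb4*, a cytosolic DnaJ protein, was 2.20 ± 0.15 higher (SE, limma adjusted p = 3.79e-06). Of the 8 ER genes 5 were higher in SP, among them *Hspa5* by 0.74 ± 0.14 (limma adjusted p = 0.00186), and 3 mitochondrial genes were lower. Each of the 12 early response genes was also higher in SP, and the part of that difference was not tested.

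In E11.5_UB against E11.5_NP, 21 members were higher and 15 lower, against 28.7% and 31.5% of all genes. *Hspb1* was higher by 3.31 ± 0.15 (limma adjusted p = 1.44e-09) and *Hspa1a* by 2.92 ± 0.23 (limma adjusted p = 3.23e-07), while *Dnajb4*, *Dnaja1* and *Hspa4l* were lower. Between E11.5_UB and E11.5_SP, 18 members were higher and 18 lower in UB, against 26.8% and 26.7% of all genes. *Dnajb4* fell by 2.79 on the log2 scale from SP to UB (51.7 to 85.1 against 6.71 to 9.99, SE 0.16, limma adjusted p = 2.38e-07). Of the 12 early response genes, 10 were higher in UB than in NP, and 6 were higher and 3 lower in UB than in SP.

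The comparison of E12.5 with E11.5 asks how the members change over the day between the embryonic samples. In SP, 0 of 60 tested members were called higher and 3 lower with all libraries, against 3.73% and 4.80% of all genes. The 3 were the stress-induced *Hspa4l* and *Hspb8* and the testis-rich HSP70 gene *Hspa2*. Only 1 was called without any 1 of E11.5_SP replicates 1 to 3 or E12.5_SP replicates 2 to 4. Without E12.5_SP replicate 1, 6 were higher and 19 lower, against 10.9% and 10.7% of all genes. *Hspa1a* then stood at 6.65 to 7.32 in E12.5_SP against 103 to 149.6 in E11.5_SP, with a log2 fold change of -3.92 ± 0.14 (limma adjusted p = 9.67e-06). With all libraries the value was -2.42 ± 1.2 (limma adjusted p = 0.247). Without the library, 9 of the 10 stress-induced genes were lower at E12.5, and *Dnajb4* was not called (0.16 ± 0.17, limma adjusted p = 0.535). The nephron progenitor markers summed to 24.2 to 41.4 in E12.5_SP against 60.2 to 94.0 in E11.5_SP, and the ureteric bud markers to 25.8 to 39.9 against 48.5 to 127.7, in both cases with E12.5_SP replicate 1 included. As means of log2(value + 1), the early response genes were at 6.33 to 6.77 in E12.5_SP replicates 2 to 4 against 6.90 to 7.19 in E11.5_SP. In the same libraries the stromal markers were at 8.58 to 8.67 against 8.17 to 8.45. Their part in the chaperone differences was not tested.

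In NP, 1 of 61 members was higher and 6 were lower with all libraries, against 2.74% and 3.59% of all genes. In place of these 7, 1 was called without E11.5_NP replicate 2 or 3 or E12.5_NP replicate 3 or 4, and 3 without E11.5_NP replicate 4. Without E12.5_NP replicate 1, 6 were higher and 14 lower, against 9.08% and 7.98%. *Hspb1* was at 8.48 to 14.4 in E11.5_NP and at 0.792 to 1.23 in E12.5_NP replicates 2 to 4, a log2 difference of -2.65 without that library. In those replicates *Hspb1* was under 1 on average (0.962). It passed the filter on low values (at least 1 in at least 4 libraries) only through E11.5_NP. Its difference without the library is therefore a description, with no test, and the counts that hold it are not supported by it. With all libraries the change of *Hspb1* was -1.42 ± 0.99 (limma adjusted p = 0.424). *Hsph1*, the HSP110 gene, was at 423 to 518 in E11.5_NP against 155 to 169 in E12.5_NP replicates 2 to 4. Its change was -1.52 ± 0.10 without E12.5_NP replicate 1 (limma adjusted p = 0.000235). In the same replicates 2 to 4 the early response genes summed to 532 to 738 against 842 to 1013 in E11.5_NP, and the nephron progenitor markers to 1355 to 1587 against 990 to 1141. Their part was not tested.

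In UB, 7 of 61 members were higher and 23 lower with all libraries, against 14.2% and 12.3% of all genes, and 9 and 27 without E12.5_UB replicate 1, against 24.7% and 19.1%. The stress-induced list had a median of -1.36, with 9 genes lower and *Dnajb4* higher, and the constitutive list a median of -0.24 with 7 of 11 lower. *Hsp90aa1* was at 1264 to 1393 in E11.5_UB and at 688 to 759 in E12.5_UB, a change of -0.88 ± 0.06 (limma adjusted p = 7.1e-05). *Hspa8* fell by 1.67 on the log2 scale (SE 0.22, limma adjusted p = 0.00131). The ureteric bud markers summed to 1889 to 1992 in E12.5_UB replicates 2 to 4 against 2305 to 2425 in E11.5_UB. The stromal markers summed to 177 to 184 against 124.7 to 145.7. As means of log2(value + 1) both lists overlapped. The part of the markers was not tested. The sign of these UB values, of chaperones and markers, rests on the titles.

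The comparison of ES-derived cells with E11.5 cells asks how far the 2 sources of each progenitor type differ. In iSP, all 10 stress-induced genes were lower than in E11.5_SP. *Hspa1a* was at 0.773, 1.29, 0.665 and 0.912 in iSP and at 103 or more in each E11.5_SP library, a log2 difference of -6.0. *Hspa1b* was at 2.40 to 2.95 against 139 to 204. The ratio of *Hspa1b* to *Hspa1a* was 2.06 to 4.28 in iSP against 1.33 to 1.36 in E11.5_SP. In iNP it was 2.69 to 4.22 against 1.45 to 1.77 in E11.5_NP. How the counting split the reads of the pair was not tested. *Hspa1a*, under 1 on average in iSP and in iNP, passed the filter on low values (at least 1 in at least 4 libraries) only through the embryonic group in each comparison of iSP or iNP with embryonic cells, so that its values there are a description, with no test, and the counts that hold it are not supported by it.

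*Hspb1* was at 1.07 to 2.22 in iSP against 43.9 to 70.0 in E11.5_SP, and changed by -4.50 ± 0.20 (limma adjusted p = 2e-07). *Hsph1* was at 109 to 138 against 703 to 892, and changed by -2.66 ± 0.11 (limma adjusted p = 1.17e-07). *Hspa4l* fell by 3.61, *Hspb8* by 2.30, *Hsp90aa1* by 2.0, *Dnaja1*, a DnaJ partner of HSP70, by 1.66, *Dnajb1* by 1.35 and *Dnajb4* by 1.27 on the log2 scale, with SEs of 0.09 to 0.17. Over all members, 18 of 62 were higher and 31 lower, against 35.5% and 32.1% of all genes.

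In iNP, 9 stress-induced genes were lower than in E11.5_NP, and *Dnajb4* was higher by 0.60 ± 0.11 (limma adjusted p = 0.000812). *Hspa1a* was at 0.498 to 0.797 in iNP against 13.3 to 37.1, a difference of -3.87. *Hsph1* was at 79.7 to 94.0 against 423 to 518, with -2.41 ± 0.10 (limma adjusted p = 9.06e-08). *Hspa4l* was at 5.67 to 8.74 against 52.8 to 76.2, with -2.90 ± 0.16 (limma adjusted p = 5.19e-07). Over all members, 17 of 62 were higher and 26 lower, against 35.5% and 29.2% of all genes. Cell type markers moved with this comparison. The nephron progenitor markers summed to 325 to 546 in iNP against 990 to 1141 in E11.5_NP, the endothelial markers to 44.6 to 76.0 against 9.30 to 29.1, and the ureteric bud markers to 84.4 to 114 against 29.3 to 44.7. In iSP the nephron progenitor markers summed to 110.0 to 114 against 60.2 to 94.0 in E11.5_SP and the erythroid markers to at most 0.0483 against 43.5 to 1116, while the endothelial markers (33.5 to 53.9 against 14.5 to 43.1) overlapped. The stromal markers overlapped as a sum (2129 to 2336 against 1794 to 2250) but were lower as a mean of log2(value + 1), at 6.94 to 7.20 in iSP against 8.17 to 8.45. In iUB the macrophage markers summed to 0.371 to 0.497 against 37.3 to 64.6 in E11.5_UB, the endothelial markers to 0.965 to 1.98 against 5.05 to 14.1, the ureteric bud markers to 2004 to 2201 against 2305 to 2425, and the stromal markers to 196 to 220.0 against 124.7 to 145.7. Their part in the chaperone differences was not tested.

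In iUB, the libraries differed among themselves. *Hspa1a* was at 16.9, 68.4, 101 and 162 in iUB replicates 1 to 4, against 165 to 188 in E11.5_UB. *Hspa1b* was at 40.1, 131, 168 and 282 against 230.4 to 287, so that the groups overlapped, and its change of -1.08 ± 0.47 was not called (limma adjusted p = 0.0711). *Hspa1b* was called, and lower, without iUB replicate 1 (-0.54) or 4 (-1.47). The change of *Hspa1a* was -1.42 ± 0.54 (limma adjusted p = 0.0447). That call was lost without E11.5_UB replicate 1, 2, 3 or 4 or iUB replicate 2 (limma adjusted p of 0.0793 to 0.0907) with edgeR (-1.08, adjusted p = 0.0699), with no filter on low values (limma adjusted p = 0.0578) and with all 36 libraries in the fit (limma adjusted p = 0.269), and the change was -0.78 without iUB replicate 1 (limma adjusted p = 0.00286). *Dnajb1* was higher in iUB, at 203 to 385 against 155 to 203, by 0.69 ± 0.17 (limma adjusted p = 0.00634), and so was *Dnajb4* by 0.95 ± 0.14.

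The largest falls among the stress-induced genes in iUB were those of *Hspb8* and *Hspb1*, both small heat-shock genes. *Hspb8*, whose protein works in chaperone-assisted autophagy, was at 3.49 to 6.16 in iUB against 23.6 to 42.6 and changed by -2.56 ± 0.19 (limma adjusted p = 2.79e-06). *Hspb1* was at 11.4 to 32.3 against 102 to 131 and changed by -2.52 ± 0.25 (limma adjusted p = 1.73e-05). Of the 10 stress-induced genes 7, with *Hspa1a* among them, were lower and 2 higher. Over all members, 11 of 63 were higher and 24 lower, against 32.1% and 28.5% of all genes. The 63 hold 2 members that were under 1 on average in 1 group and give the counts no support.

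The stress-induced and constitutive lists can be set side by side without a test, since both were chosen with results of these data known. The stress-induced median log2 fold change against E11.5 was -2.48 in iSP, -1.70 in iNP and -0.84 in iUB. The constitutive median was -0.24, -0.15 and -0.18, and that of all genes tested 0.04, 0.07 and 0.02. *Hsp90ab1* was not called in any of these comparisons, with changes of 0.03 ± 0.11 in iSP, 0.16 ± 0.12 in iNP and -0.07 ± 0.10 in iUB. *Hspa8* was lower in each, by -1.24 ± 0.15 in iSP (limma adjusted p = 5.7e-05), -0.32 ± 0.10 in iNP (limma adjusted p = 0.0189; lost without E11.5_NP replicate 3 or iNP replicate 3 or 4) and -0.40 ± 0.08 in iUB (limma adjusted p = 0.00182).

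Per library, the mean log2(value + 1) of the stress-induced list was 7.10 to 7.47 in E11.5_SP, 5.39 to 5.60 in E12.5_SP replicates 2 to 4, 8.20 in E12.5_SP replicate 1 and 4.14 to 4.25 in iSP. The same mean was 4.23 to 4.38 in iNP and 5.52 to 6.74 in iUB. The constitutive mean stayed within 7.57 to 8.19 over all 36 libraries. The iUB library with the lowest stress-induced mean was replicate 1, which was also the lowest of the iUB libraries in the summed level of the early response genes (4928 against 6359 to 7639).

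**Figure D3:**
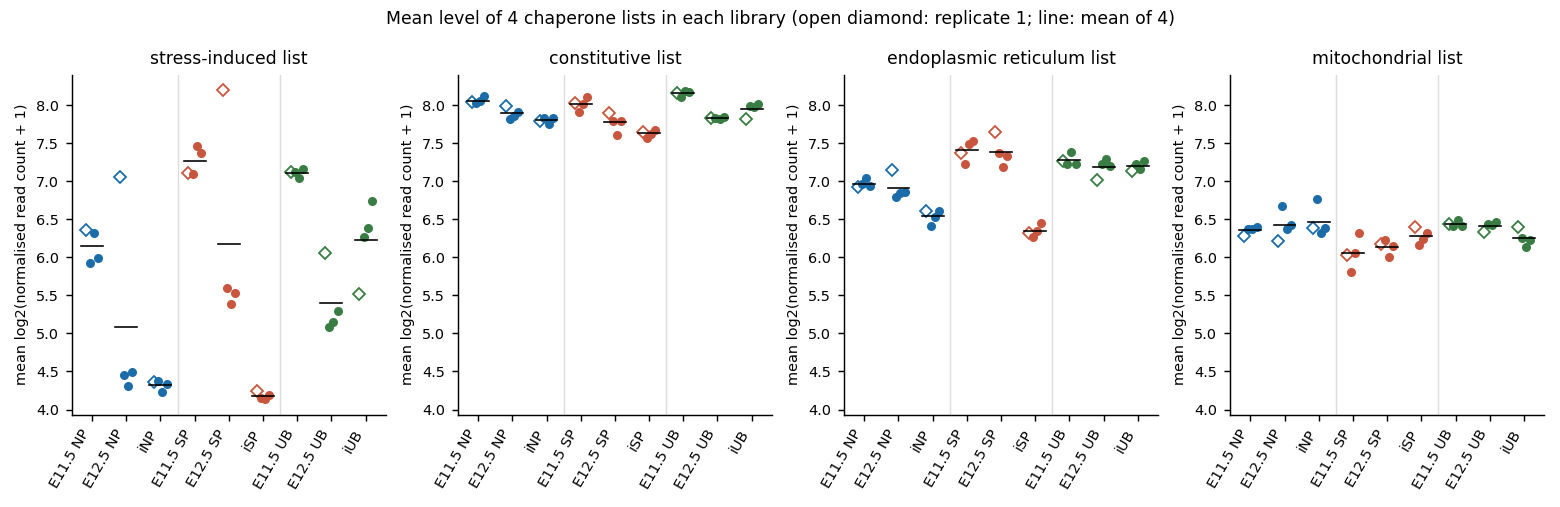
Mean log2(normalised count + 1) of the stress-induced, constitutive, ER and mitochondrial lists in each of the 36 libraries, with open diamonds for replicate 1 and lines for the mean of 4. The stress-induced list ran from 4.14 to 8.20 and the constitutive list from 7.57 to 8.19.

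Early response genes were counted in the same comparisons. In iSP 5 of 12 were higher and 5 lower than at E11.5, against 35.5% and 32.1% of all genes. In iNP 7 were higher and 4 lower, against 35.5% and 29.2%, and in iUB 9 and 1, against 32.1% and 28.5%. *Fos* was higher in iSP, by 1.22 ± 0.12 (limma adjusted p = 1.67e-05), while *Atf3*, a stress-response transcription factor, was at a mean of 2.88 in iSP against 178 (-5.51 ± 0.15, limma adjusted p = 1.75e-08). Their part in the chaperone differences was not tested. The pluripotency markers summed to at most 5.65 in the ES-derived libraries, below the 15.6 of E12.5_UB replicate 1.

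Whether the ES-derived minus E11.5 change differed between cell types was tested in a fit of 24 libraries. The iNP and iSP cells shared an ES line and a protocol, and iUB had others. In the differences that use UB, cell type therefore cannot be told apart from ES line and protocol. For *Dnajb1* the change in SP minus that in NP was -0.85 ± 0.22 log2 units, that in UB minus NP was 1.183 ± 0.22 and that in UB minus SP was 2.03 ± 0.22 (limma adjusted p = 0.00419, 0.000114 and 8.39e-08). *Hspa1a* was under 1 on average in both iNP and iSP, so its difference between SP and NP restates their E11.5 levels and its other differences are set in part by them. It is among the genes counted next in each of the 3 pairs of types, and those counts are not supported by it. Of the stress-induced genes, 8 of 10 had a lower change in SP than in NP and 0 a higher one. In UB against NP 7 had a higher change and *Hspb8* a lower one, and in UB against SP 9 had a higher change. The mean log2(value + 1) of the stress-induced list was 4.32 in iNP and 4.18 in iSP, against 6.15 in E11.5_NP and 7.26 in E11.5_SP. For SP and NP the E11.5 levels thus lay further apart than the ES-derived levels. Over all 63 members tested, 6 were higher and 21 lower in SP against NP, beside 12.9% and 18.5% of all genes. In UB against NP, 18 were higher and 15 lower, beside 22.4% and 25.3%, and in UB against SP 24 and 11, beside 23.2% and 21.9%.

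**Figure D4:**
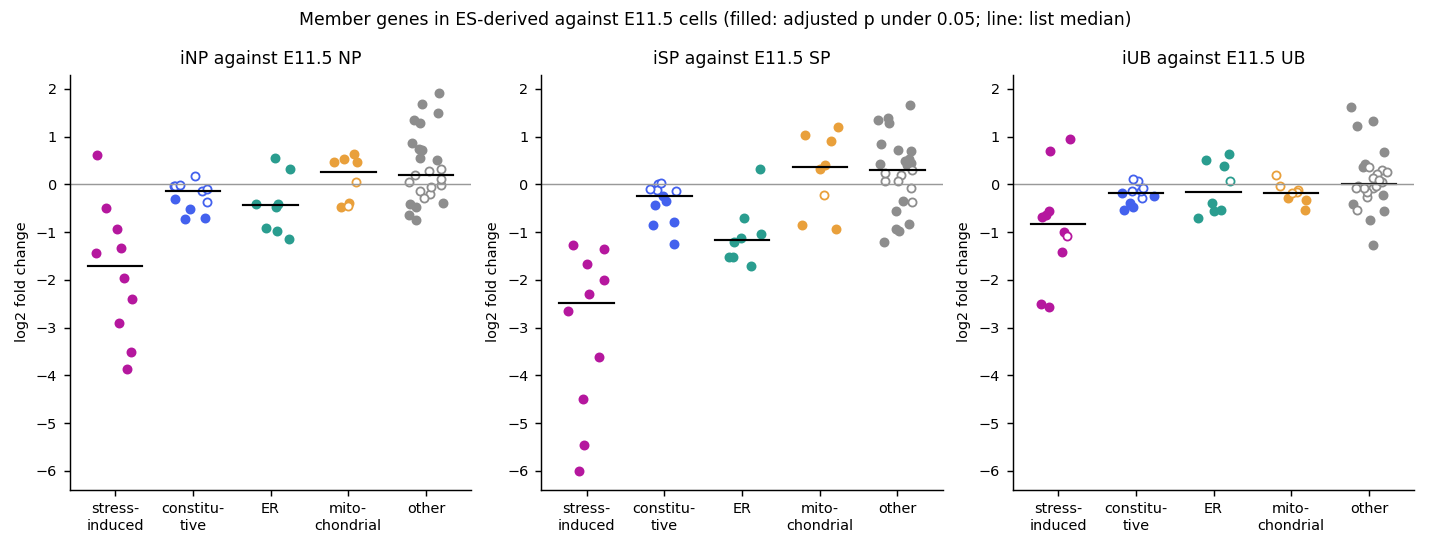
Log2 fold change of each tested member, ES-derived against E11.5 cells, in NP, SP and UB, by list. Filled points have an adjusted p under 0.05 and lines are list medians. The stress-induced medians lay at -1.70, -2.48 and -0.84, and the constitutive medians at -0.15, -0.24 and -0.18.

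Chaperones of the ER were more often lower than higher in iSP and iNP. In iSP 7 of 8 were lower and 1 higher than in E11.5_SP, with a median of -1.16, against 32.1% lower and 35.5% higher among all genes. *Hspa5* was at 608 to 689 in iSP against 1561 to 2178, a change of -1.53 ± 0.12 (limma adjusted p = 3.95e-06), and *Hsp90b1*, the HSP90 of the ER, changed by -0.71 ± 0.09 (limma adjusted p = 0.000111). In iNP 6 were lower and 2 higher, with a median of -0.44, against 29.2% and 35.5%. *Hspa5* changed by -0.41 ± 0.12 (limma adjusted p = 0.0116), and *Hsp90b1* was higher by 0.33 ± 0.09 (limma adjusted p = 0.0119). In iUB 4 were lower and 3 higher, against 28.5% and 32.1%, so that the higher count was near the share of all genes. *Hspa5* was at 1167 to 1334 in iUB against 1965 to 2109, changing by -0.71 ± 0.08 (limma adjusted p = 4.03e-05). *Hsp90b1* changed by -0.39 ± 0.13 in iUB (limma adjusted p = 0.0259), a call lost without E11.5_UB replicate 3 (-0.32) or with no filter on low values.

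Of the 8 mitochondrial chaperones, 4 were higher and 2 lower in iNP, against 35.5% and 29.2% of all genes, and 0 were higher and 3 lower in iUB, against 32.1% and 28.5%. *Hspd1* and *Hspe1*, which encode the HSP60 barrel and its HSP10 lid, were lower in iSP by -0.94 ± 0.14 and -0.86 ± 0.15 (limma adjusted p = 0.000251 and 0.000535). In iNP *Hspd1* was lower by -0.47 ± 0.13 (limma adjusted p = 0.00906), and *Hspe1* was not called (-0.45 ± 0.18, limma adjusted p = 0.0511), though it was without iNP replicate 2. The DnaJ genes *Dnaja3*, *Dnajc11*, *Dnajc15*, *Dnajc19* and *Dnajc30* were higher in iSP, so that 5 of 8 rose and 2 fell, with a median of 0.37, against 35.5% and 32.1% of all genes. *Hspa9*, the HSP70 of mitochondria, was lower in iNP by -0.38 ± 0.10 (limma adjusted p = 0.00665) and was called in neither iSP (-0.23 ± 0.11) nor iUB (-0.17 ± 0.07).

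The members with the smallest adjusted p among those higher in ES-derived cells were low and lay outside the stress-induced list. *Dnajc22*, a membrane DnaJ gene, was at 8.95 to 10.3 in iNP against 1.57 to 1.98 in E11.5_NP, at 2.703 to 3.87 in iSP against 0.219 to 0.416 in E11.5_SP, and at 7.17 to 7.99 in iUB against 1.32 to 2.23 in E11.5_UB. Its changes were 1.90 ± 0.10 in iNP and 1.61 ± 0.12 in iUB (limma adjusted p = 4.78e-07 and 3.22e-06). In SP it passed the filter only through iSP, so that it had to differ, and its values there are a description. *Hspb11*, a ciliary transport protein also known as IFT25, was at 13.9 to 22.5 in iNP against 4.17 to 4.92 and at 9.70 to 10.9 in iUB against 3.36 to 4.49. Its changes were 1.68 ± 0.15 in iNP and 1.21 ± 0.10 in iUB (limma adjusted p = 9.37e-06 and 7.04e-06).

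*Dnajc12*, a partner of the aromatic amino acid hydroxylases, was at 7.26 to 10.2 in iNP against 2.38 to 3.49 and at 8.09 to 10.002 in iSP against 2.37 to 3.64. It was higher by 1.28 ± 0.14 and 1.39 ± 0.13 (limma adjusted p = 3.8e-05 and 1.2e-05). *Hspb6*, the small heat-shock protein HSP20 known from muscle, was at 8.27 to 11.9 in iSP against 2.94 to 3.72 and at 7.35 to 8.57 in iUB against 2.24 to 3.18. It rose by 1.36 ± 0.13 and 1.32 ± 0.12 (limma adjusted p = 1.34e-05 and 8.16e-06), and by 1.34 ± 0.21 in iNP (limma adjusted p = 0.000371). *Dnajc12* was not called in iUB (0.35 ± 0.21, limma adjusted p = 0.177).

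Against E12.5 cells, sizes and some directions depended on the first E12.5 libraries. In iSP 14 of 62 members were higher and 24 lower with all libraries, against 33.3% and 28.8% of all genes, and 9 of 10 stress-induced genes were lower, as they were in number without E12.5_SP replicate 1. *Hspa1a*, which is one of the 9 and passed the filter only through E12.5_SP, differed by -3.58 log2 units with all libraries and by -2.08 without E12.5_SP replicate 1. *Dnajb1* was at 97.3 to 108 in iSP. It was -0.61 ± 0.79 with all libraries and 0.37 ± 0.09 without that library (limma adjusted p = 0.522 and 0.0032). As means of log2(value + 1), the nephron progenitor markers were at 3.76 to 3.91 in iSP against 2.01 to 2.90 in E12.5_SP. The endothelial markers were at 2.82 to 3.42 against 1.79 to 2.38, and the stromal markers at 6.94 to 7.20 against 7.96 to 8.67. The erythroid markers were at 0.0136 or less against 3.13 to 5.88. Their part was not tested.

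In iNP against E12.5_NP, 9 members were higher and 12 lower with all libraries, against 25.6% and 18.7% of all genes, and 15 and 13 without E12.5_NP replicate 1, against 24.6% and 19.5%. Of the stress-induced genes 3 were lower with all libraries, and 4 lower and 3 higher without that library. *Hspb1*, 1 of the 3 higher, was under 1 on average (0.962) in E12.5_NP replicates 2 to 4. Its value is thus a description, with no test, and the count is not supported by it. *Hsph1* was lower in both fits, by -1.25 ± 0.31 and -0.88 ± 0.11 (limma adjusted p = 0.00828 and 0.000378). *Hspa1a* was at 1.10 to 1.183 in E12.5_NP replicates 2 to 4, against 0.498 to 0.797 in iNP. As means of log2(value + 1), the nephron progenitor markers were at 5.36 to 5.62 in iNP against 7.22 to 7.77 in E12.5_NP. The endothelial markers were at 3.02 to 3.65 against 1.24 to 2.58. The ureteric bud markers were at 3.93 to 4.19 against 2.06 to 3.65, and the stromal markers at 4.99 to 5.54 against 4.49 to 4.89. Their part was not tested.

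In iUB against E12.5_UB, 14 members were higher and 10 lower, against 23.3% and 21.2% of all genes. In place of these 24, 15 were called without E12.5_UB replicate 2 or 4. Of the stress-induced genes 4 were higher and 0 lower (*Hspa1a*, *Hspa1b*, *Dnajb1* and *Dnaja1*). *Hspa1a* was higher by 2.54 ± 0.78 (limma adjusted p = 0.0261), a call lost without E12.5_UB replicate 2, 3 or 4 or iUB replicate 2, 3 or 4, as was that of *Dnaja1*, and *Dnajb1* by 1.90 ± 0.32 (limma adjusted p = 0.0016). *Hspa8* was at 1160 to 1326 in iUB against 394 to 883, higher by 1.27 ± 0.23 (limma adjusted p = 0.00234). Without E12.5_UB replicate 1 the same 4 genes were higher, *Hspa1a* by 3.18 ± 0.64 (limma adjusted p = 0.00358). As means of log2(value + 1), the macrophage markers were at 0.101 to 0.131 in iUB against 2.51 to 3.29 in E12.5_UB. The early response genes were at 7.85 to 8.38 against 6.90 to 7.19. Their part in the chaperone differences was not tested.

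Factors and co-chaperones that act with the members, but are not members, were counted in the same comparisons. Of 21 such genes, 14 of the 21 tested were lower and 0 higher in iSP, 10 of 20 lower and 2 higher in iNP, and 14 of 21 lower and 2 higher in iUB, each against E11.5. The shares of all genes that were lower were 32.1%, 29.2% and 28.5%. *Hsf1*, the factor of the heat-shock response, was at a mean of 47.5 in iSP against 87.8 (-0.86 ± 0.13, limma adjusted p = 0.000318), 45.2 in iNP against 84.3 (-0.88 ± 0.09, limma adjusted p = 2.18e-05) and 53.4 in iUB against 68.5 (-0.36 ± 0.09, limma adjusted p = 0.00808). *Bag3*, an HSP70 co-chaperone, was lower in iSP by -1.57 ± 0.12 (limma adjusted p = 3.76e-06) and was not called in iNP (0.15 ± 0.10, limma adjusted p = 0.189). *Hsf2*, a related factor, was higher in iUB by 0.54 ± 0.11 (limma adjusted p = 0.00179) and lower in iSP and iNP.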

How the data were processed

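RNA of 36 flow-sorted samples, 4 in each of 9 groups, was sequenced after an Illumina stranded preparation, and kidneys could be kept cold before sorting. The authors trimmed reads with Cutadapt, aligned them with STAR to an Ensembl genome that they name GRCh38, although the identifiers are of mouse, and filtered and normalised with edgeR. The deposited values are a signal, counts scaled to library size with edgeR factors, and the counting program, its strand setting and the annotation release are not given in the sources used here. The deposited group means, fold changes and p-values were not used. Dividing each value by that of 1 read gave whole reads for 100% of values (tolerance 0.01), 13004352 to 52535113 a library. The p-values measure only the spread between these samples, and depth limits cover counting error only.

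Groups came from the sample titles. Values were tested as log2(value + 1) with limma 3.58.1 in R 4.3.3, over genes at 1 or more in at least 4 libraries of the comparison, each comparison fitted on its own 8 libraries without a block and the interactions on 24, with p-values adjusted over all genes by Benjamini and Hochberg's method and called under 0.05. edgeR 4.0.16 on the recovered reads was an alternative and called 36, 48 and 43 members in iUB, iSP and iNP against E11.5, beside 35, 49 and 43. Other alternatives were a pseudocount of 0.1, other filters and scalings, all 36 libraries in a fit, the replicate number as a block, and each library left out. Same-numbered libraries were checked for joint deviations. The tests were tried on simulated data.

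Named genes were the stress-induced list, its main partners (*Hspa8*, *Hsp90ab1*, *Hspa5*, *Hsp90b1*, *Hspd1*, *Hspe1*, *Hspa9*) and in each ES-derived against E11.5 comparison the 3 members with the smallest adjusted p among those higher and the 3 among those lower, and the 5 members that differed most in each direction in E12.5_SP replicate 1. The members and lists were chosen with earlier results of these data known. Coordinates and exon lengths are from GENCODE vM21 (22642 of 22761 identifiers matched), promoters from RefSeq, and copies were found with BLAST 2.17.0. Python 3.11.15 with pandas 2.3.3, numpy 2.4.6, scipy 1.17.1 and matplotlib 3.10.9 did the rest.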

Additional observations from a re-analysis of the deposited data

Results flagged for a closer look

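In 34 of 189 sets of 4 libraries examined, covering 17 genes and 4 lists, 1 library lay beyond Dixon's critical value. Chance gives about 1 in 20 for sets picked without regard to their values, but these genes and lists were chosen with earlier results known, so the count is a description. Of these, 30 were the first E12.5 library of its group, and those of SP and NP deviate together and are not separate sightings. In E12.5_SP replicate 1 the high values in normalised counts were 5205 for *Hsp90ab1*, 3695 for *Hspa5*, 2032 for *Hspa8*, 1769 for *Hsp90aa1*, 1374 for *Hsph1*, 1205 for *Dnajb1*, 722 for *Hspa1b*, 512 for *Hspa1a*, 405 for *Dnaja1*, 182 for *Hspb1* and 158 for *Dnajb4*. The stress-induced list stood at 8.20 on the mean log2 scale.

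In E12.5_NP replicate 1 they were 1936 for *Hspa5*, 1359 for *Hspa8*, 1128 for *Hsp90aa1*, 448 for *Hsph1*, 370.4 for *Dnajb1*, 289 for *Hspa1b*, 271 for *Dnaja1*, 194 for *Hspa1a*, 58.1 for *Hspb1*, 44.7 for *Dnajb4* and 36.5 for *Hspa4l*, with the list at 7.06. In E12.5_UB replicate 1 they were 883 for *Hspa8*, 178 for *Dnaja1*, 155 for *Dnajb1*, 65.7 for *Hspa1b* and 43.2 for *Hspa1a*, and *Hsp90b1* was low at 883. The other 4 were *Hsp90b1* at 1372, the highest, and *Hspa1b* at 230.4, the lowest, in E11.5_UB replicate 3, and *Hsp90ab1* at 7108 and the mitochondrial list at 6.76, the highest, in iNP replicate 2.

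The change from E11.5 to ES-derived cells differed between cell types in 25 of 30 tests of the stress-induced list, by a limma interaction term. The 3 pairs of types are not independent, since the third difference follows from the other 2. In the pairs with UB, cell type cannot be told apart from ES line and protocol, which iNP and iSP shared and iUB did not. Among all genes 12.9% were higher and 18.5% lower for SP minus NP, 22.4% and 25.3% for UB minus NP, and 23.2% and 21.9% for UB minus SP. *Hspa1a* was under 1 normalised count on average in iNP and iSP, so its SP minus NP difference restates the E11.5 levels and the other 2, also among the 25, are set in part by them. As SP minus NP, the differences in log2 fold change were -2.54 for *Hspb1*, -2.13 for *Hspa1a*, -1.94 for *Hspa1b*, -1.88 for *Dnajb4*, -1.36 for *Hspb8*, -0.85 for *Dnajb1*, -0.71 for *Hspa4l* and -0.57 for *Hsp90aa1*. As UB minus NP they were 2.45 for *Hspa1a*, 2.44 for *Hspa1b*, 2.25 for *Hspa4l*, 1.42 for *Hsph1*, 1.183 for *Dnajb1*, 0.78 for *Dnaja1*, 0.75 for *Hsp90aa1* and -1.62 for *Hspb8*. As UB minus SP they were 4.38 for *Hspa1b*, 2.96 for *Hspa4l*, 2.23 for *Dnajb4*, 2.03 for *Dnajb1*, 1.99 for *Hspb1*, 1.67 for *Hsph1*, 1.32 for *Hsp90aa1*, 1.11 for *Dnaja1* and 4.58 for *Hspa1a*.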

How the results depend on the processing

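The comparisons with E12.5 depended most on single libraries. Members called between E12.5_SP and E11.5_SP numbered 3, and 1 to 25 with a library left out, 25 being without E12.5_SP replicate 1 and 1 without each other library of that comparison but E11.5_SP replicate 4. Between E12.5_NP and E11.5_NP they numbered 7, and 1 to 20, 20 being without E12.5_NP replicate 1, 1 without E11.5_NP replicate 2 or 3 or E12.5_NP replicate 3 or 4, and 3 without E11.5_NP replicate 4. With all 36 libraries in the fit, 17, 11 and, for E11.5_UB against E11.5_NP, 22 in place of 36 were called. In iUB against E12.5_UB 24 were called, and 15 to 29 with a library left out, 15 being without E12.5_UB replicate 2 or 4. Without E12.5 replicate 1, *Dnajb1* turned to 0.37 in iSP and 0.46 in iNP, and *Hspb1* to 0.68 in iNP, each against E12.5. With a library left out these 3 values ran from -0.99 to 0.37, -0.43 to 0.46 and -1.0 to 0.68. *Hspb1* was under 1 on average (0.962) in E12.5_NP replicates 2 to 4, so its turn is a description, with no test. The stress-induced minus constitutive median in iSP against E11.5 was -2.38 with a pseudocount of 0.1, -2.06 with at least 1 in all libraries, -2.40 by edgeR and -1.91 without *Hspa1a* and *Hspa1b*. In iNP these were -1.75, -1.29, -1.76 and -1.235. Without that pair, the E11.5_UB difference was 0.072 against NP and -0.44 against SP, and that of E11.5_SP against NP was 0.924 to 1.33 with a library left out, 1.33 being without E11.5_NP replicate 1. The cause was not tested. Of the counts and list values under an alternative, 917 kept their direction and their side of the threshold, 43 lost the threshold, 15 passed it and 21 moved. Of the values of single genes 2830 kept both, 139 lost the threshold, 83 passed it and 3 changed sign. In no compared pair of groups were all 4 same-number correlations of deviations over 0.1, so the numbers were not taken as pairs. Of 8 libraries, 6 correlated best with their own number in iNP against E12.5_NP and in E12.5_NP against E11.5_NP, 5 in iNP against E11.5_NP and 0 to 4 elsewhere, a hint of pairing in NP. With the replicate number as a block, 35, 21, 23, 49, 37, 3, 42, 24, 6, 30, 35 and 33 members were called, in place of 35, 24, 30, 49, 38, 3, 43, 21, 7, 27, 36 and 36, for iUB against E11.5 and E12.5, E12.5_UB against E11.5_UB, the same 3 for SP and for NP, and E11.5 SP against NP, UB against NP and UB against SP. *Hspa1a* rested on 88 reads in iNP and 97 in iSP, each over 4 libraries.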
